A study of Mus musculus with 20 samples.

Results

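Spp1, Gpnmb, Lgals1, Lgals3 and Lgals9 are 5 of the 51826 genes counted in cultured kidney myofibroblasts, chosen by name as secreted or phagocyte-linked genes of fibrosis and followed here in every library. All 5 passed the filter on low counts. Renal myofibroblasts, the contractile cells that lay down scar matrix, were grown out of kidney pieces of C57BL/6J mice, either wild type (WT) or lacking WWP2, a ubiquitin ligase (WWP2-/-, HO in the labels). Each genotype was left untreated or given the cytokine TGFβ1 (the libraries marked T), with 5 libraries of poly-A RNA in each of the 4 groups, named below by group and replicate. The labels give neither dose nor duration of TGFβ1, and the study's text describes exposure over days at a fixed dose. The labels do not say whether the libraries of a group come from separate animals. The study calls its data points in general single mice or cells of single mice, without naming these libraries, and P values here measure the spread between libraries. The cells were passaged outgrowths and not a sorted population.

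Osteopontin, the product of Spp1, is a secreted, heavily phosphorylated matrix protein that binds the hyaluronan receptor CD44 and several integrins. In kidney it is made by injured tubular epithelium, and in scarring tissues a class of macrophages is known for high Spp1 together with Gpnmb, Lgals3, Trem2 and Cd9. Galectins are small lectins that bind β-galactosides on the cell surface and in the matrix. Galectin-1 (Lgals1) is abundant in mesenchymal cells, galectin-3 (Lgals3) is a macrophage and epithelial galectin linked to fibrosis, and galectin-9 (Lgals9) is a ligand of the immune receptor TIM-3, encoded by Havcr2. Gpnmb is a transmembrane glycoprotein of lysosomes and phagosomes and a known target of the MITF and TFE transcription factors.

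Spp1 (ENSMUSG00000029304) lies at chr5:104435118-104441050 on the plus strand of GRCm38, Gpnmb (ENSMUSG00000029816) at chr6:49036546-49070929 on the plus strand, and Lgals3 (ENSMUSG00000050335) at chr14:47367751-47386160 on the plus strand. Lgals9 (ENSMUSG00000001123) lies at chr11:78962974-78984946 on the minus strand and Lgals1 (ENSMUSG00000068220) at chr15:78926725-78930465 on the plus strand. All are protein-coding genes. Exons of Spp1 overlap those of Gm42793, an unverified gene on the same strand that held at most 702 counts in any library, and no other member shared exons with another annotated gene.

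The bases before the start sites of Spp1, Gpnmb and Lgals9 are shown because these genes had different patterns over the libraries. The sequences are from RefSeq (GRCm38.p6), 250 bases upstream of the start, 5′ to 3′ on the strand of the gene. Capitals mark matches, none overlapping, on either strand to 7 short motifs, chosen with the genes' biology and earlier results of these data known. They were the AP-1 site, spelled TGANTCA, the M-box core, spelled CATGTG, the CLEAR E-box core, spelled CACGTG, and the RUNX site, spelled ACCACA. The others were the PU box, spelled GAGGAAG, the TATA box, spelled TATAAA, and the promoter element spelled CCAAT. The Spp1 window is chr5:104434861-104435110, the Gpnmb window chr6:49036268-49036517 and the Lgals9 window chr11:78984925-78985174.
Spp1: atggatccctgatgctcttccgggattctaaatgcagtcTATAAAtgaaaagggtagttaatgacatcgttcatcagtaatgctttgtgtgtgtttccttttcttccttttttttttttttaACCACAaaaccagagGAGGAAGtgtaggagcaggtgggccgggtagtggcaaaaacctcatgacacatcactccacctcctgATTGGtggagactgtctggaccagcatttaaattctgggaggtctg
Gpnmb: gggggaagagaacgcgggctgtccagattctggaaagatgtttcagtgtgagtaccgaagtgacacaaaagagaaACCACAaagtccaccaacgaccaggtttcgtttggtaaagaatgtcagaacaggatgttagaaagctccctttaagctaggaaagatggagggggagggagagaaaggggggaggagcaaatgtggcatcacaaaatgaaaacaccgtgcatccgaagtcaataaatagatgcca
Lgals9: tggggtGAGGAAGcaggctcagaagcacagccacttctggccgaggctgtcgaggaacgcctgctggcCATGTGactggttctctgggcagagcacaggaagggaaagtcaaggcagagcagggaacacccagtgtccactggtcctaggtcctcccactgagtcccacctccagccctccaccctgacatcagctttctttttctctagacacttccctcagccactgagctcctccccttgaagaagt
The Spp1 window held 4 matches. The TATA box, the RUNX site, the PU box and, on the other strand, the CCAAT element began 211, 128, 113 and 46 bases before the start. Gpnmb held a RUNX match at 175 bases, and Lgals9 a PU box at 244 and an M-box core at 182 bases. Over the 32851 upstream windows of the same length in the table, 12.4% held the TATA box, 14.0% the RUNX site, 10.6% the PU box, 33.8% the CCAAT element and 12.3% the M-box core. None of the 3 windows shown held the AP-1 site (6.75% of all windows) or the CLEAR core (6.02%). The matches describe letters in these windows, not binding. Of the 5 genes, 4 had an entry. The RefSeq start of Lgals3 lay 6109 bases from the GENCODE gene start, so its window is not shown.

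Totals lay between 47520759 and 73063697 counts per library. Wwp2 was between 46.7 and 61.6 CPM (counts scaled to a library total of 1e6) in the 10 WT libraries and between 15.5 and 24.0 CPM in the 10 WWP2-/- libraries, so the targeted gene followed the labels. The libraries differed in Xist, a non-coding RNA made from the silenced X chromosome in females. It was under 1 CPM in 9 libraries (1 WT, 1 WT with TGFβ1, 3 WWP2-/- and 4 WWP2-/- with TGFβ1) and above it in 11, and 5 of these 11 also carried Y-linked Ddx3y and Eif2s3y. Untreated WWP2-/- replicate 3 and TGFβ1-treated WWP2-/- replicate 1 stood apart with 39.7 and 49.0 CPM of the myofibroblast gene Acta2, against 945 to 3337 CPM elsewhere. Because Xist and genotype ran together, values of the 5 genes are also given for each kind of library. In RNA from whole cultures, fewer cells of a type and less RNA per cell cannot be told apart.

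Per length of transcript, osteopontin RNA was the highest of the 5. By mean TPM (the scale of CPM after division by exon length), 99.98% of 13519 genes of at least 1 CPM on average ranked below Spp1 and 99.85% below Lgals1. The median of Spp1 over 20 libraries was 5447 TPM, followed by Lgals1 at 2772, Lgals3 at 275, Gpnmb at 243 and Lgals9 at 159 TPM. The range over the libraries was unequal too. The highest library was 28.6-fold above the lowest for Spp1, 18.1-fold for Gpnmb, 15.1-fold for Lgals3 and 13.8-fold for Lgals9, but 2.47-fold for Lgals1. The SD of log2 CPM was 1.43 for Spp1 and 0.37 for Lgals1, against a median of 0.33 over these 13519 genes. The 4 groups together accounted for 22.3% of the variance of log2 CPM of Spp1 and 8.22% of that of Lgals1, with 29.1% to 32.2% for Lgals3, Lgals9 and Gpnmb, so most of the spread lay among libraries of the same group.

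**Figure D1:**
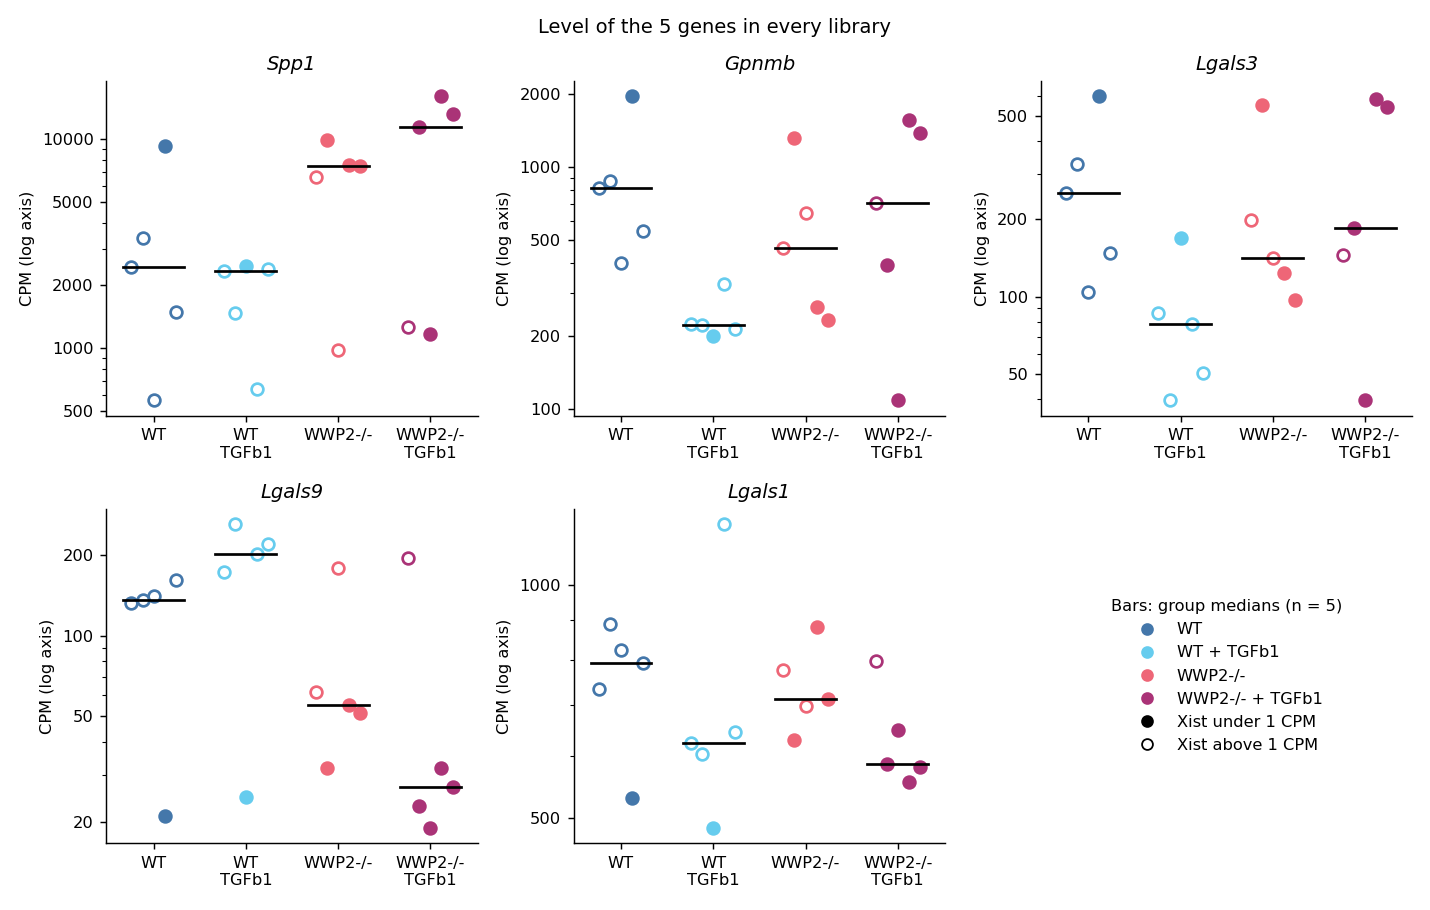
Level of each gene in CPM on a log axis, by group, with 1 point per library and a bar at the group median (n = 5). Filled points are the 9 libraries with Xist under 1 CPM, and the plot shows Lgals9 at 54.9 CPM or less in all of them and at 61.2 CPM or more in the other 11.

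Osteopontin was highest in TGFβ1-treated WWP2-/- cells, but not in every library. With TGFβ1, Spp1 was at 1266, 11502, 1169, 16085 and 13156 CPM in WWP2-/- replicates 1 to 5 and at 2345, 1482, 2478, 641 and 2391 CPM in WT replicates 1 to 5. Thus 3 WWP2-/- libraries lay above every WT library, while replicates 1 and 3 lay within the WT range. The log2 fold change was 2.03 (standard error 0.76), with an unadjusted P of 0.0151 and an adjusted P of 0.110 (edgeR), which did not pass 0.05. Of 20407 genes tested in this comparison, 6.07% passed (2.1% higher and 3.96% lower in WWP2-/-), and none of Spp1, Gpnmb and the galectins did. By the unadjusted P, 4 of the 5 were under 0.05, against 24.7% of all genes, and the Wald test of DESeq2 called 3 of them, all higher, Spp1 (adjusted P = 0.0338), Lgals3 (0.0421) and Gpnmb (0.0306), where it called 6.3% of all genes higher and 6.81% lower. In 5.67% of all genes every library of one genotype lay above every library of the other, and in none of the 5.

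The result for Spp1 moved with which libraries were compared. Without the 2 libraries of low Acta2, its log2 fold change was 2.29 and passed (adjusted P = 0.0275, edgeR, 4 WWP2-/- against 5 WT libraries). In that setting 7.69% of all genes passed as higher and 9.56% as lower. The 4 WWP2-/- libraries left were all without Xist, while 4 of the 5 WT libraries held it, so genotype and Xist were confounded further. With log2 CPM of Xist as a covariate the log2 fold change of Spp1 was 0.54 (adjusted P = 0.727, edgeR). Among libraries with Xist, the 1 WWP2-/- library at 1266 CPM lay within the 4 WT libraries (fold change -0.50 on the log2 scale), and among those without it the 1 WT library was at 2478 CPM and the 4 WWP2-/- libraries at 1169 to 16085 CPM (log2 fold change 2.03). Over all groups, Spp1 had a median of 9340 CPM in the 9 libraries without Xist and 1498 CPM in the 11 with it, with ranges of 1169 to 16085 and 563 to 6624 CPM that overlapped.

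In untreated cells, Spp1 was at 6624, 9890, 986, 7552 and 7485 CPM in WWP2-/- and at 2444, 3367, 563, 9340 and 1498 CPM in WT replicates 1 to 5. Replicate 3 was the lowest of both genotypes, and WT replicate 4, the WT library without Xist, was as high as the upper WWP2-/- libraries. The log2 fold change was 0.91 (standard error 0.74, adjusted P = 0.579, edgeR), where 0.725% of all genes passed (0.103% higher and 0.622% lower) and none of the 5 did. Nor were the genotypes without overlap for any of the 5, against 2.79% of all genes. At an unadjusted P under 0.05 none of the 5 was left either, against 14.9% of all genes, and DESeq2 called none of them. The order of the group medians of Spp1 was TGFβ1-treated WT (2345 CPM), untreated WT (2444), untreated WWP2-/- (7485) and treated WWP2-/- (11502), and no neighbouring pair differed beyond the spread of the libraries.

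Gpnmb gave the clearest separation by treatment, in WT cells. It was at 816, 876, 402, 1960 and 544 CPM in untreated WT and at 224, 223, 200, 327 and 214 CPM in TGFβ1-treated WT replicates 1 to 5. All 5 treated libraries lay below every untreated one, which held for 1.35% of all genes in either direction. The log2 fold change was -1.80 (standard error 0.57, unadjusted P = 0.00514, adjusted P = 0.641, edgeR). No gene passed in this comparison with edgeR (0% of 20407), 1397 had an unadjusted P under 0.05, and DESeq2 called 27, of which Gpnmb was not one (adjusted P = 0.139). The value was -1.32 among libraries with Xist and -1.72 with Xist as a covariate.

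In WWP2-/- cells, Gpnmb was at 460, 1312, 643, 262 and 233 CPM untreated and at 709, 393, 108, 1564 and 1382 CPM with TGFβ1. Treated libraries held both the lowest and the highest value, and the log2 fold change of 0.53 (standard error 0.55) did not pass. The difference between the genotypes in the effect of TGFβ1 was 2.33 on the log2 scale (standard error 0.79, unadjusted P = 0.00820, adjusted P = 0.549, edgeR). No gene passed this interaction with edgeR (0%), 1424 genes had an unadjusted P under 0.05, Lgals3 and Gpnmb among them, and DESeq2 called 10 genes. Against treated WT cells, treated WWP2-/- cells had Gpnmb higher by 1.62 on the log2 scale (standard error 0.56, adjusted P = 0.0887, edgeR), with 4 of 5 libraries above every WT library and replicate 3 below all of them. Without replicate 3 it passed (1.88, adjusted P = 0.0359), as did 2.2% of all genes in that direction.

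Galectin-3 RNA went with Gpnmb. Lgals3 was at 252, 327, 104, 599 and 148 CPM in untreated WT and at 86.7, 39.6, 169, 78.6 and 50.4 CPM in treated WT replicates 1 to 5. Of the treated libraries, 4 lay below all untreated ones, and replicate 3, without Xist, lay among them. The log2 fold change was -1.65 (standard error 0.62, adjusted P = 0.641, edgeR). In WWP2-/- cells it was at 198, 555, 141, 123 and 96.9 CPM untreated and at 145, 185, 39.6, 584 and 541 CPM treated, and these groups overlapped. Treated WWP2-/- against treated WT gave 1.67 (standard error 0.62, adjusted P = 0.105, edgeR) and the interaction 2.09 (standard error 0.86, adjusted P = 0.626). Over the 20 libraries, log2 CPM of Lgals3 and Gpnmb had a Pearson r of 0.89, the highest of the 10 pairs of the 5 genes, and 0.62 and 0.39 with Spp1. These r share library depth and the groups and are descriptions.

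Galectin-9 RNA was divided by Xist in every group. Lgals9 was at 133, 136, 141, 21.0 and 162 CPM in untreated WT, at 174, 262, 24.7, 202 and 221 CPM in treated WT, at 61.2, 31.8, 179, 54.9 and 51.1 CPM in untreated WWP2-/- and at 195, 22.9, 18.9, 31.8 and 27.1 CPM in treated WWP2-/- replicates 1 to 5. In each group the libraries without Xist were the low ones. They lay between 18.9 and 54.9 CPM (median 27.1, 9 libraries) and the others between 61.2 and 262 CPM (median 174, 11 libraries), and the presence of Xist accounted for 84.1% of the variance of its log2 CPM, against 46.6% for Spp1, 38.1% for Lgals1, 12.8% for Lgals3 and 0.367% for Gpnmb. These shares are a description, since the kinds of library were set from the data. The lowest library with Xist, untreated WWP2-/- replicate 1 at 61.2 CPM, held 35.5 CPM of Xist and 116 CPM of Y-linked Ddx3y. The others with Xist were at 133 CPM or more.

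Between treated WWP2-/- and WT cells, the log2 fold change of Lgals9 was -1.71 (standard error 0.75, adjusted P = 0.168, edgeR). It was -3.03 without WWP2-/- replicate 1, the treated WWP2-/- library with Xist, and then passed (adjusted P = 0.0183), as did 6.41% of all genes in that direction. Among libraries with Xist it was -0.20, among those without 0.03, and with Xist as a covariate -0.36 (adjusted P = 0.574). Untreated, the difference was -0.72 (standard error 0.74, adjusted P = 0.668, edgeR).

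Galectin-1 RNA varied least. Lgals1 was at 733, 890, 824, 530 and 793 CPM in untreated WT, at 624, 604, 485, 1198 and 645 CPM in treated WT, at 776, 629, 697, 882 and 712 CPM in untreated WWP2-/- and at 797, 587, 649, 556 and 582 CPM in treated WWP2-/- replicates 1 to 5. Every pair of groups overlapped. With TGFβ1, the difference between genotypes was -0.30 on the log2 scale (standard error 0.24, 95% confidence interval -0.81 to 0.21, adjusted P = 0.467, edgeR), and untreated it was -0.10 (-0.60 to 0.41). TGFβ1 gave 0.03 (-0.48 to 0.53) in WT and -0.17 (-0.68 to 0.33) in WWP2-/- cells. In WWP2-/- cells none of the 5 genes passed for TGFβ1 against untreated, nor had an unadjusted P under 0.05. There the groups of 0.377% of all genes did not overlap, and of none of the 5. For all genes edgeR called 0%, 713 had an unadjusted P under 0.05 and DESeq2 called 44.

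**Figure D2:**
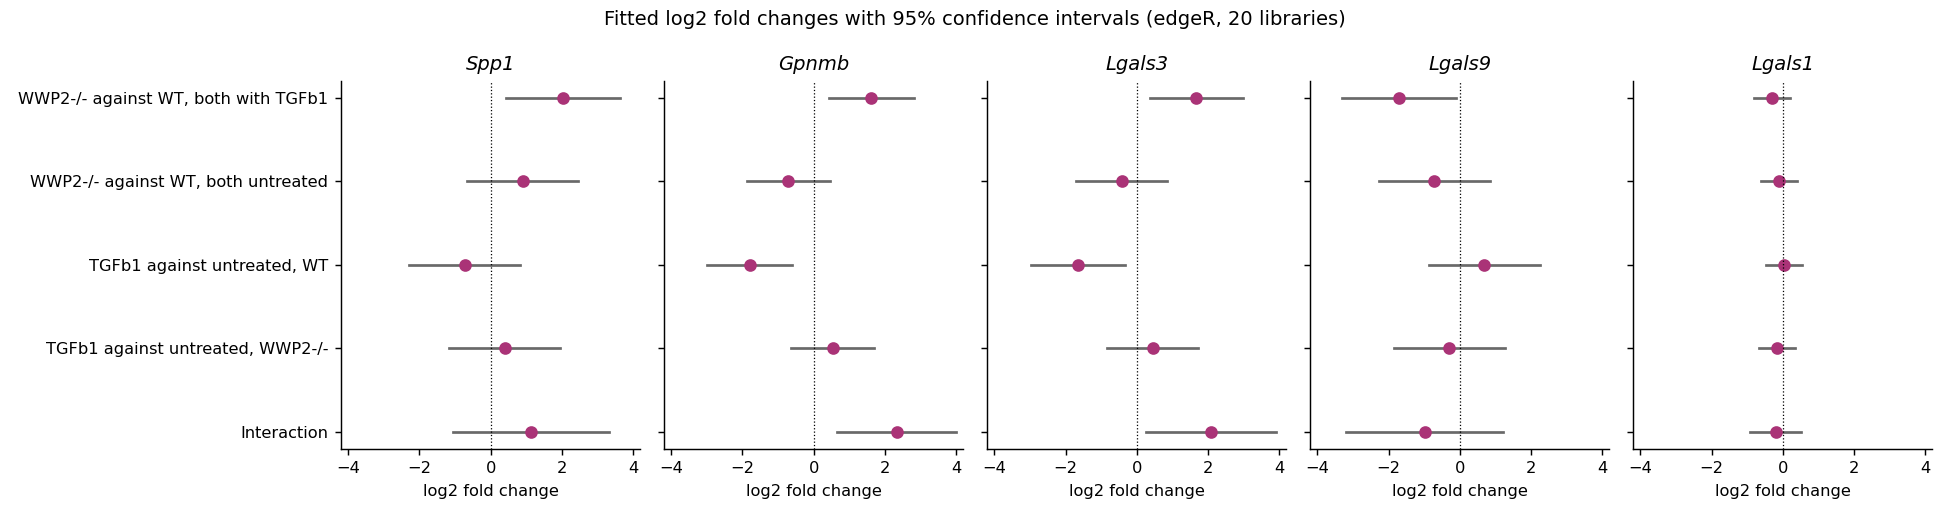
Log2 fold change (points) and 95% confidence interval (lines) of each gene in the 4 comparisons of groups and in the interaction, from 1 edgeR fit of 20 libraries. The intervals for Spp1, Gpnmb and Lgals3 between treated WWP2-/- and WT cells lie above 0 before adjustment over 20407 genes, and those for Lgals1 are the narrowest.

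Whether osteopontin RNA followed macrophage, tubular or fibroblast genes was asked with a score per library, the mean over a marker list of z-scored log2 CPM, and with deviations from the group means, so that genotype and treatment did not enter. Spp1 rose and fell with both the tubular score (Pearson r = 0.87, Spearman rho = 0.78, 20 libraries, permutation within groups, adjusted P over 15 relations = 0.00060) and the macrophage score (r = 0.83, rho = 0.76, adjusted P = 0.00117). With the fibroblast score it had r = -0.40 and rho = -0.48 (adjusted P = 0.0993), which did not pass. Without the 2 libraries farthest from the median score, r was 0.86, 0.78 and -0.33. The macrophage and tubular scores themselves had r = 0.93 with each other within groups, so these libraries do not separate them.

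The relation with tubular genes held in both kinds of library, and that with macrophage genes did not pass in 1 of them. In the 9 libraries without Xist, Spp1 had r = 0.76 with the tubular score (exact permutation test, adjusted P = 0.0237) and 0.75 with the macrophage score (exact, adjusted P = 0.0152). In the 11 with Xist, r was 0.76 (permutation, adjusted P = 0.0321) and 0.51 (adjusted P = 0.200). Groups were pooled in these values. The difference between the 2 r with the macrophage score was not tested, nor was that between the tubular and macrophage r. In the 11 libraries with Xist the tubular and macrophage scores had r = 0.89 with each other.

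**Figure D3:**
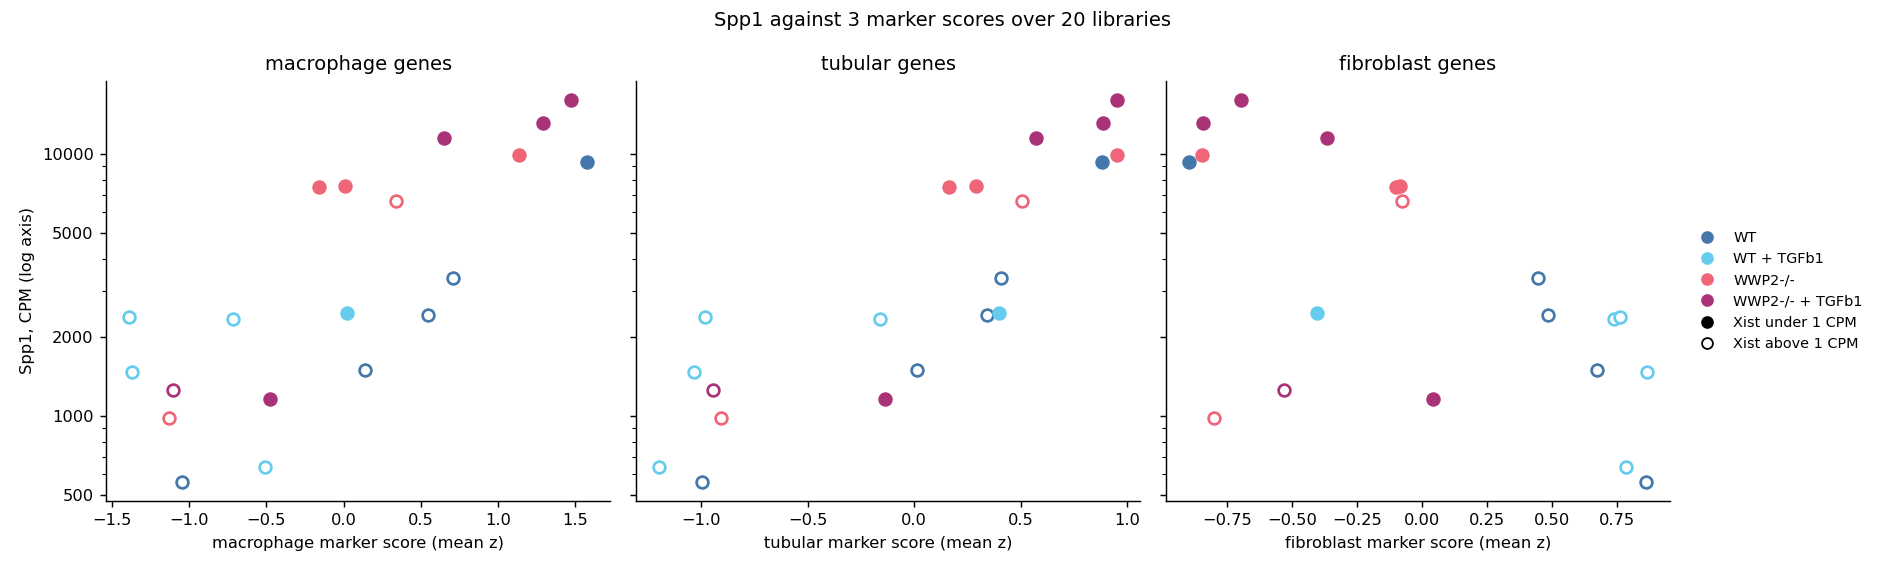
Spp1 in CPM on a log axis against the macrophage, tubular and fibroblast marker scores (mean z over each list) in 20 libraries, coloured by group, filled where Xist was under 1 CPM. The 5 libraries of highest Spp1, from 9340 to 16085 CPM, lie at tubular scores of 0.57 or more and fibroblast scores of -0.37 or less.

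Single markers were read over the 20 libraries as a description. Spp1 had r = 0.92 over the 20 libraries with Cd14, a co-receptor of lipopolysaccharide on monocytes and macrophages, and 0.85 with Csf1r, the receptor of macrophage colony-stimulating factor. It had 0.87 with Pax8, a transcription factor of the tubular epithelium. All 15 macrophage markers (median r = 0.72) and all 14 tubular markers tested (median 0.67) had a positive r with it. So did 6 of 8 endothelial markers (median 0.70), so the positive r was not particular to macrophage and tubular genes. Of 12 fibroblast markers, 3 did (median -0.63). The positive ones included Vim at 0.39 and Fn1 at 0.36, and the lowest were the small matrix proteoglycans Dcn at -0.81 and Lum at -0.75 and the fibroblast receptor Pdgfra at -0.73. Of the 17 tubular markers, Slc34a1, Umod and Aqp2 of differentiated segments did not pass the filter on low counts. Pax8 was between 6.18 and 220 CPM and the leukocyte gene Ptprc between 0.451 and 37.9 CPM. The RNA of these cultures thus included epithelial and leukocyte genes beside Acta2 and collagen, at levels that differed between libraries.

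The 5 genes most like Spp1 over the libraries were outside these lists. They were Cep85 (r = 0.97, a centrosomal protein), Steap1 (0.96, a metalloreductase-family membrane protein), Samd10 (0.96), AI854703 (0.95) and Trib1 (0.95, a pseudokinase), among 13518 genes of at least 1 CPM on average.

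Lgals3 followed both macrophage and tubular genes too. Within groups it had r = 0.83 with macrophage genes (rho = 0.86, permutation, adjusted P = 0.00080), 0.71 with tubular genes (adjusted P = 0.00313) and -0.74 with fibroblast genes (adjusted P = 0.00060). With the macrophage score, r was 0.97 in the 9 libraries without Xist (exact permutation test, adjusted P = 4.13e-05) and 0.82 in the 11 with it (permutation, adjusted P = 0.0133). With the tubular score, r was 0.99 (exact permutation test, adjusted P = 0.000276) and 0.74 (permutation, adjusted P = 0.0322). The macrophage and tubular scores had r = 0.97 and 0.89 with each other there, so these libraries do not separate them. The genes most like it were Mmp12, macrophage elastase, at r = 0.98, Mfsd12 (0.96), the C-type lectin Clec4d (0.96), the interleukin-7 receptor Il7r (0.96) and the macrophage lysosomal protein Cd68 (0.96).

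Gpnmb had r = 0.54 with macrophage genes within groups (adjusted P = 0.0557), 0.32 with tubular genes (0.241) and -0.61 with fibroblast genes (0.00313), by permutation over 20 libraries. In the 9 libraries without Xist these were 0.98, 0.95 and -0.94 (exact permutation test, adjusted P = 0.000276, 0.00121 and 0.00375), and in the 11 with it 0.58, 0.42 and -0.53, none of which passed (adjusted P = 0.164 to 0.325). Gstt2 (r = 0.96, a glutathione transferase), Dnase2a (0.95, a lysosomal nuclease), Anpep (0.95, aminopeptidase N), Sirpa (0.95, a receptor of CD47 on myeloid cells) and Ly9 (0.93) were most like it.

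Lgals9 and Lgals1 ran the other way. Within groups Lgals9 had r = -0.73 with macrophage and -0.79 with tubular genes (permutation, adjusted P = 0.00087 and 0.00086) and 0.58 with the fibroblast score (adjusted P = 0.0324). Within the 9 libraries without Xist, none of its 3 relations passed (exact permutation test, adjusted P = 0.305 to 0.478), and in the 11 with Xist those with the macrophage and tubular scores did (r = -0.69 and -0.76). Over 20 libraries its r was positive with 9 of 12 fibroblast markers (median 0.64). It was 0.97 with Pdgfra and 0.95 with the proteoglycan Lum, but -0.73 with Fn1, -0.51 with Vim and -0.11 with S100a4. Pdgfra was between 0.594 and 1.91 CPM in the 9 libraries without Xist and between 15.2 and 161 CPM in the others, the same division as for Lgals9. The genes most like Lgals9 were Rtn4rl2 (0.98), Ankrd40 (0.98), Cand2 (0.98), the Wnt agonist Rspo3 (0.97) and Cdc42ep4 (0.97).

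Lgals1 had r = 0.71 with the fibroblast score, -0.68 with the tubular score and -0.53 with the macrophage score within groups (permutation, adjusted P = 0.00313, 0.00313 and 0.0191). In the 11 libraries with Xist none of these passed (r = 0.23, -0.27 and 0.15), and without the 2 libraries farthest from the median score the last was -0.40 and did not pass (adjusted P = 0.109). Rhoa (0.96), a GTPase of the cytoskeleton, Pold4 (0.94), Rras (0.92), Pmvk (0.91) and Sec61g (0.91) were most like it.

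**Figure D4:**
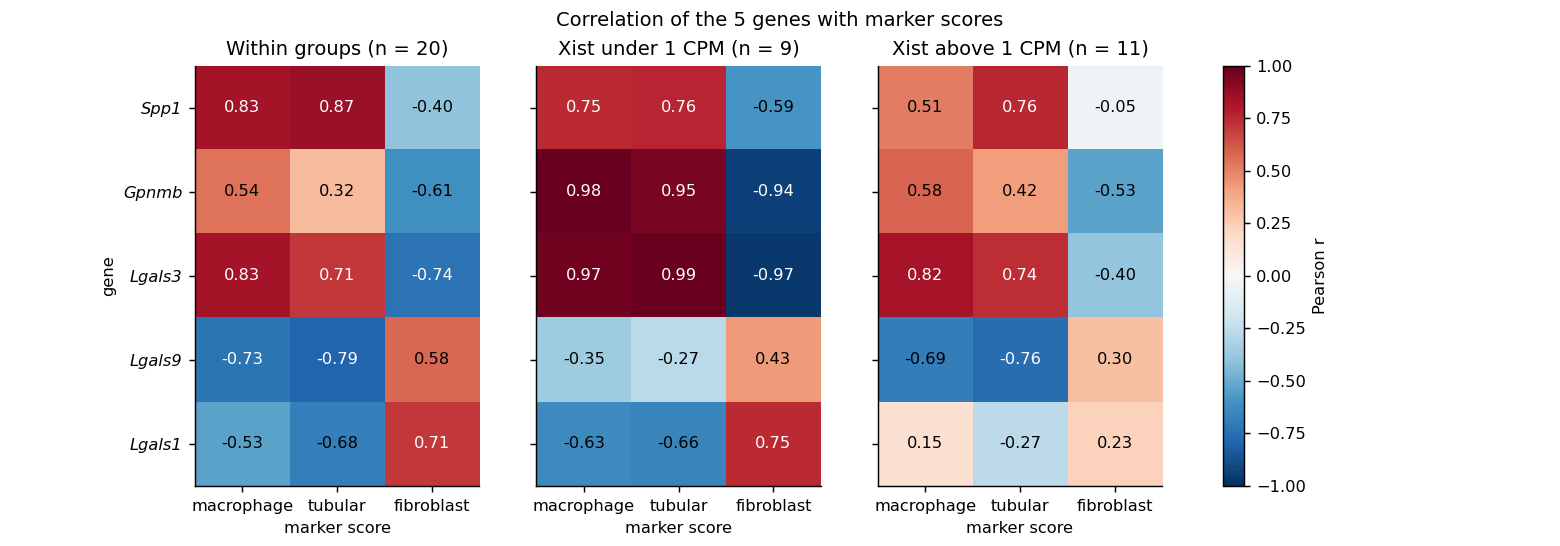
Pearson r of log2 CPM of each gene (down the side) with the 3 marker scores (along the bottom), as deviations from group means in 20 libraries (left) and within libraries of Xist under or above 1 CPM (middle, n = 9, and right, n = 11). Spp1, Gpnmb and Lgals3 are positive with macrophage and tubular scores in all 3 panels, and Lgals9 is negative with both.

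**Figure D5:**
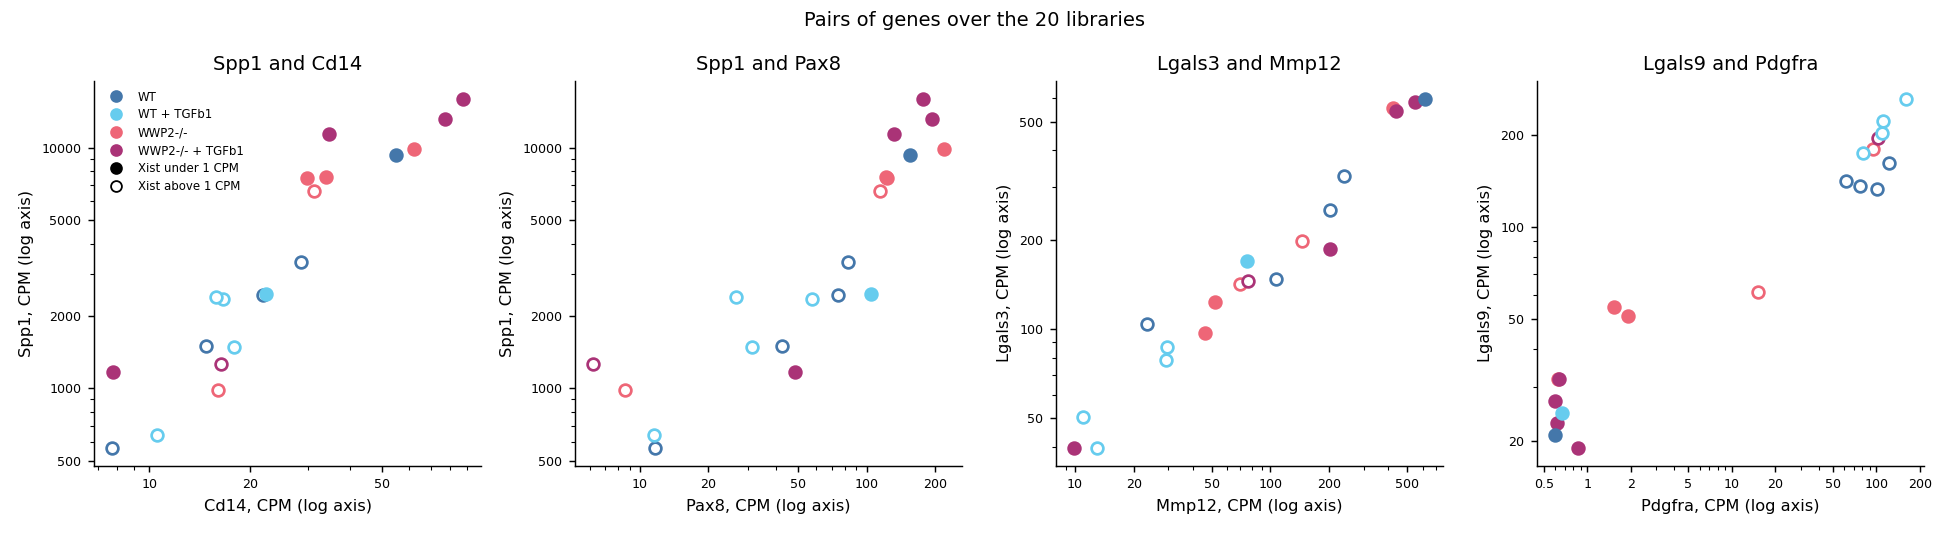
Level of Spp1 against Cd14 and Pax8, of Lgals3 against Mmp12 and of Lgals9 against Pdgfra, in CPM on log axes, 1 point per library, filled where Xist was under 1 CPM. The points of Lgals9 fall into a group at 54.9 CPM or less with Pdgfra at 1.91 CPM or less and another at 61.2 CPM or more. The point at 61.2 CPM is untreated WWP2-/- replicate 1, which held both Xist and Y-linked RNA, and the rest of its group lies at 133 CPM or more.

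The marker lists were also summed per library, to set beside Spp1, Lgals3 and Gpnmb. The summed level of the 15 macrophage markers was between 175.8 and 5411 CPM in untreated WT libraries (median 1169), between 82.2 and 584 in treated WT (median 179), between 115 and 2669 in untreated WWP2-/- (median 612) and between 108 and 4648 in treated WWP2-/- (median 1260). Between treated WWP2-/- and WT cells all 15 had a positive log2 fold change, and none passed (edgeR). Their median was 2.58 against 0.05 over all genes. DESeq2 called 13 (6.3% of all genes were called higher). Without the 2 libraries of low Acta2, which left no treated WWP2-/- library with Xist, edgeR called 14 (7.69% of all genes). All 14 tubular markers tested were positive (median 1.58), with none passing. DESeq2 called 2 of these 14, against 6.3% of all genes called higher. In treated against untreated WT cells, all 15 macrophage markers were negative (median -2.48), and none passed. The part of these cell types in the values of Spp1, Lgals3 and Gpnmb was not tested.

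In this comparison 2.1% of all genes rose and 3.96% fell, against which the counts of small lists are to be read. Fold changes of list genes are not given for each kind of library, though Xist and genotype ran together. Among 12 fibroblast markers, 3 fell in treated WWP2-/- against WT cells, namely Col1a2 (-2.63), Postn (-2.44) and Col1a1 (-1.98), which encode matrix proteins, and none rose (median -2.12, edgeR). Over all groups these 3 were also lower without Xist. Their medians without and with it were 1228 and 5877 CPM for Col1a2, 148 and 829 for Postn and 1639 and 5391 for Col1a1. Without the 2 libraries of low Acta2, 8 fell and 1 rose, against 9.56% and 7.69% of all genes. That setting held no treated WWP2-/- library with Xist. Of 8 endothelial markers, Kdr, a receptor of VEGF, fell by 1.76, against 3.96% of all genes falling, and none rose (median 0.60). The median of Kdr over all groups was 1.87 CPM without Xist and 4.96 CPM with it.

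The receptors of osteopontin were split. In treated WWP2-/- against WT cells, 1 of 10 rose and 2 fell, against 2.1% and 3.96% of all genes, with a median of 0.74. Cd44 was at 294, 297, 367, 253 and 252 CPM in treated WWP2-/- and at 117, 82.8, 165, 58.9 and 78.2 CPM in treated WT replicates 1 to 5, so that all WWP2-/- libraries lay above all WT libraries, a lack of overlap found in 5.67% of all genes in either direction. Its log2 fold change was 1.46 (standard error 0.26, adjusted P = 0.00783, edgeR). The median of Cd44 over all groups was 256 CPM without Xist and 117 CPM with it, though treated WWP2-/- replicate 1, at 294 CPM, held Xist. The integrins Itga8 and Itga9, whose products bind osteopontin as partners of β1, fell by 1.76 (adjusted P = 0.0226) and 1.16 (0.0241) on the log2 scale. Over all groups both were also lower without Xist, with medians of 0.94 and 9.32 CPM against 3.10 and 18.6 CPM with it. Itgb1, the receptor subunit of the highest median TPM in this list, had 0.54 (adjusted P = 0.379).

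Of the 7 proteases that cleave osteopontin, 5 were tested and Mmp9, a gelatinase, rose, by 5.18 on the log2 scale (adjusted P = 0.0158, edgeR), against 2.1% of all genes rising. Its treated WWP2-/- libraries were at 46.9, 1.99, 29.4, 4.41 and 2.73 CPM, with replicates 1 and 3 far above the rest, and treated WT libraries were between 0.180 and 0.947 CPM. The median of Mmp9 over all groups was 1.99 CPM without Xist and 0.44 CPM with it. Mmp12 had 2.87 (adjusted P = 0.0665) and the median of the 5 was 1.09. The other members of osteopontin's gene family, Ibsp, Dmp1, Dspp and Mepe, did not pass the filter on low counts.

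Of 9 further galectins and galectin binders, 7 were tested, 1 rose, against 2.1% of all genes, and none fell (median 0.54). Havcr2, the receptor of galectin-9, rose by 2.48 (adjusted P = 0.0474, edgeR). It was at 56.0, 8.14, 7.30, 5.30 and 6.22 CPM in treated WWP2-/- replicates 1 to 5 and between 1.94 and 3.54 CPM in treated WT libraries, with the highest value in a library of low Acta2. The median of Havcr2 over all groups was 6.22 CPM without Xist and 3.54 CPM with it. Lgals8 had 0.01 and Lgals3bp, a secreted galectin-3 ligand, -1.50 (adjusted P = 0.403).

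Among 14 MITF and TFE factors and lysosomal targets, Tfec, a factor of this family in macrophages, rose by 2.10 (adjusted P = 0.0362) and Pmel, a relative of Gpnmb in pigment cells, fell by 1.52 (adjusted P = 0.0138, edgeR). Over all groups, medians without and with Xist were 6.28 and 2.89 CPM for Tfec and 1.73 and 3.70 CPM for Pmel. The highest Tfec value, 22.0 CPM, was nevertheless in a library with Xist, against at most 9.72 CPM in those without it. Of all genes 2.1% rose and 3.96% fell. The median of the list was 0.32, with Ctsb at 0.63 (adjusted P = 0.0847), Ctsd at 0.69 (0.0919) and Mitf at -0.46 (0.386). Gpnmb had r = 0.80 with Ctsb and -0.17 with Mitf over 20 libraries.

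Of 12 genes of the Trem2 and Spp1 macrophage programme, Plin2, a coat protein of lipid droplets, rose by 1.51 (adjusted P = 0.0137, edgeR), against 2.1% of all genes rising, and none fell. The median of Plin2 over all groups was 359 CPM without Xist and 152 CPM with it. Trem2 itself had 2.50 (adjusted P = 0.116) and Apoe 1.88 (0.217), while Lpl had -1.35 (0.371), and the median was 0.62. All 12 had a positive r with Lgals3 (median 0.62) and with Gpnmb (0.55), and 10 of 12 with Spp1 (0.44).

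Of 14 TGFβ1 response genes, 1 rose and 3 fell in treated WWP2-/- against WT cells (edgeR), against 2.1% and 3.96% of all genes, and the median of the list was 0.13. Those that fell were Postn, Col1a1 and Lox, which cross-links collagen (Lox -2.00, adjusted P = 0.0340, edgeR). The median of Lox over all groups was 1009 CPM without Xist and 4233 CPM with it. For TGFβ1 against untreated in WT cells none of the 14 passed and the median was 0.46, and in WWP2-/- cells it was 0.26 with none passing. No gene of any of these lists passed in the other 4 contrasts.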

How the data were processed

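Poly-A RNA of 20 cultures was sequenced in read pairs. The authors aligned the reads to GRCm38 (mm10, also in the submitters' processing notes) with STAR, and featureCounts assigned pairs to exons. The deposited values are raw counts per gene, without normalization. The versions of these tools and the strand setting are not given in the sources used here. Genes were named from GENCODE M21 on GRCm38, which matched 51633 of 51826 identifiers, and TPM used union exon lengths. CPM per library use the total count. A count of 0 allows 3 counts, and this covers counting error only.

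The 20407 genes that reached 5 counts in 5 or more libraries entered the test of edgeR 4.0.16 (R 4.3.3, TMM, glmQLFit and glmQLFTest, 4 groups, no block), with Benjamini-Hochberg adjustment over these genes and a threshold of 0.05. Each of the 20 columns was matched to a labelled sample and its group. Scores, correlations and likeness used log2 TMM CPM with a prior count of 2 and, for likeness, genes of at least 1 CPM on average. Correlations were tested with 100000 two-sided permutations (smallest P 1e-05), or over all 362880 arrangements for 9 libraries, and adjusted over 15 relations. The alternatives were DESeq2 1.42.0 (size factors, Wald test), no filter, a stricter filter of 10 counts throughout, a block for replicate number, a covariate for log2 CPM of Xist, a fit of only the groups compared, each library left out, a prior count of 0.5, and groups pooled. Comparisons within libraries with or without Xist, and without the 2 libraries of low Acta2, were chosen after seeing the data. The fits were tested on simulated data.

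The 5 genes, the marker and pathway lists, and the tests were chosen with earlier results of these data known. The genes named were the 5, Wwp2, up to 4 genes per list with the largest log2 fold changes among those that passed with at least 1 CPM, and the 5 most like each gene, and others named were chosen after their values were seen. Promoter sequences were from RefSeq on GRCm38.p6. Same-numbered libraries correlated between -0.52 and 0.44 in their deviations from group means, and the main fit did not pair libraries by number. Between untreated genotypes, WT replicates 1, 2 and 3 were most like the WWP2-/- library of the same number (r = 0.20, 0.25 and 0.44). Whether the numbers mark a shared batch is not given. Some libraries of different number were more alike across treatment. In WWP2-/- cells, untreated replicate 3 and treated replicate 1 had r = 0.91, and untreated replicate 2 and treated replicate 5 had 0.77. In WT cells, untreated replicate 4 and treated replicate 3 had 0.73. Whether these share a culture is not given, and the tests treated all libraries as independent. Results for some list genes are not reported here.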

Additional observations from a re-analysis of the deposited data

Results flagged for a closer look

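In groups of 5 libraries, a value was picked out where its gap to the nearest other exceeded 0.71 of the range of the group. This held for 6 of 20 groups. No chance rate is set beside this count, since CPM were not on a log scale and the genes shared the same libraries. Lgals9 gave 3 of the 6. It was at 21.0 CPM in WT replicate 4, below the next at 133 CPM, at 179 CPM in WWP2-/- replicate 3, above 61.2 CPM, and at 195 CPM in TGFβ1-treated WWP2-/- replicate 1, above 31.8 CPM. In the first of these Xist was under 1 CPM, unlike in the other libraries of its group, and the last was the library of its group with Xist. TGFβ1-treated WT replicate 4 was high for Lgals1, at 1198 CPM against 645 CPM in the next, and for Gpnmb, at 327 against 224 CPM. Lgals3 was at 555 CPM in untreated WWP2-/- replicate 2, against 198 CPM in the next.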

How the results depend on the processing

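Of 545 alternative values of the 25 log2 fold changes, 512 kept their direction and their side of the threshold, 8 passed where the reported value did not, and 25 had the other sign. Those that passed were all for treated WWP2-/- against WT cells. By DESeq2's Wald test they were Spp1 (2.03), Lgals3 (1.66) and Gpnmb (1.61). Without the 2 libraries of low Acta2, which left no treated WWP2-/- library with Xist, they were Spp1 (2.29) and Lgals9 (-3.01). The others were Gpnmb among libraries with Xist (1.46) and the 2 named next. The value with Xist rests on 1 treated WWP2-/- library, replicate 1, which was also of low Acta2. Leaving out 1 library gave -3.03 (without treated WWP2-/- replicate 1) to -1.51 for Lgals9, 1.25 to 1.88 (without treated WWP2-/- replicate 3) for Gpnmb and -0.46 to 0.0090 for Lgals1. In other contrasts it gave -0.29 to 0.17 for Lgals1 with TGFβ1 in WT, -1.58 to 0.34 for Lgals9 with TGFβ1 in WWP2-/-, and -0.33 to 0.13 for Lgals1 in the interaction. The other sign, with no call, was found with Xist as a covariate for Lgals1 (0.0016 with TGFβ1, 0.14 untreated), Lgals9 untreated (0.61) and Spp1 in WWP2-/- with TGFβ1 (-0.014). Among libraries without Xist it was found for Lgals1 (0.32) and Lgals9 (0.027) between treated genotypes, Spp1 (-0.099), Lgals1 (0.57) and Lgals9 (1.23) between untreated ones, and Lgals1 (-0.043) in WT with TGFβ1. Among libraries with Xist it was found for Spp1 (-0.50) between treated genotypes, Spp1 (-1.41), Lgals1 (0.27), Lgals3 (-0.061) and Lgals9 (0.84) in WWP2-/- with TGFβ1, and Spp1 (-1.31), Lgals1 (0.26) and Lgals9 (0.17) in the interaction. The cause was not tested. In these subsets an arm can hold 1 library, which is then assumed to vary like the other groups.

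With the replicate number as a block, Spp1 (0.0088) and Lgals1 (-0.019) in WT with TGFβ1 changed sign, no call of the 5 genes changed, and 670 genes passed between treated and 1 between untreated genotypes. The number of genes called between treated genotypes, 1238, was 790 without a filter, 544 with Xist as a covariate, 2672 by DESeq2, 569 with only those groups fitted, 21 without and 2043 with Xist, 3480 without the libraries of low Acta2, and 453 (without treated WT replicate 2) to 2730 (without treated WT replicate 3) when 1 library was left out. Between untreated genotypes, 148 became 84, 747, 1, 0, 1622 and 271 under the same settings from the covariate on, and 1 (without WWP2-/- replicate 1, among others) to 743 (without WT replicate 4). Of the 10 libraries left out in turn, 1 left the count between treated genotypes within 1.5 times (WWP2-/- replicate 3), and 0 left that between untreated ones so. With TGFβ1 in WT, 1 gene passed with the covariate and 27 by DESeq2. In WWP2-/-, DESeq2 called 44 and leaving out 1 library 0 to 63 (without untreated WWP2-/- replicate 3), and DESeq2 called 10 in the interaction. Spp1 had r = 0.51 with the macrophage score among libraries with Xist, and -0.58 with the fibroblast score when groups were pooled, and -0.60 (without untreated WWP2-/- replicate 3, where it passed) to -0.21 when 1 library was left out. Lgals1 had 0.15 with the macrophage score among libraries with Xist. At these depths counting error was small for the 5 genes, so the spread between libraries set the precision.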
